A study of Homo sapiens with 4 samples.

Results

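The 9 genes described here are the regulators and classical targets of NRF2, the transcription factor of the antioxidant response. They were taken by symbol from a list chosen, like the lists of related genes below, with earlier results of these data known. The list holds the factor itself (NFE2L2), its inhibitor KEAP1, and the target genes NQO1, GCLM, GCLC, TXNRD1, SRXN1, HMOX1 and ME1. All 9 were found among the 60656 Ensembl IDs of the count files, and 8 of them carried enough reads to be tested. SRXN1 held 1 or 2 reads in each library and was not tested. NRF2 is a bZIP factor whose level is set mostly by protein turnover: KEAP1, an adaptor of the CUL3 ubiquitin ligase, holds it for destruction, and oxidants or electrophiles that modify KEAP1 let it accumulate. NRF2 then pairs with a small MAF protein and binds antioxidant response elements, sites that the repressor BACH1 also occupies. Its targets make glutathione, keep thioredoxin reduced, supply NADPH, break down haem and detoxify quinones, and colorectal epithelium uses them against dietary and microbial electrophiles.

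The series holds TTchem-seq libraries of nascent RNA from the human colorectal carcinoma line HCT116, 2 labelled DKO and 2 labelled WT. In this assay, RNA made during a 30 min pulse with 1 mM 4-thiouridine (a modified uridine) is purified and sequenced. The DKO group is labelled as a double knockout of TOP2A and TOP2B, the type II topoisomerases that pass DNA duplexes through each other. Its cells carry the TOP2A mAID degron alleles and TOP2B -/-, and received 500 µM auxin for 8 h to remove TOP2A protein. The WT group is labelled wildtype; the protocol names the HCT116 TOP2A mAID line beside the knockout line and records no auxin for it. Cells of both groups were held in G1 with 2 µM palbociclib, a CDK4 and CDK6 inhibitor, for 28 h. Loss of the enzymes, auxin and any difference between the cell lines separate the groups together and cannot be told apart. The labels do not say whether the replicates were separate cultures or whether each line is 1 clone, so p-values rest on the spread between these libraries, which may be technical.

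Libraries held 51142867 to 53777749 counted reads. Mitochondrial genes took 3.86% and 3.56% of them in DKO and 5.16% and 4.64% in WT, and the gene with the most reads took 1.51% and 1.35% against 1.97% and 1.83%. TOP2A RNA stood at 165 and 168 CPM (reads scaled to a common library size with TMM factors) in DKO against 126 and 122 in WT, and TOP2B RNA at 147 and 150 against 140 and 143 (log2 fold changes 0.42 ± 0.05 and 0.07 ± 0.05). The degron acts on protein, and the labels do not say how the TOP2B alleles are disrupted, so these RNA levels give no check of the labels. The epithelial genes EPCAM, CDH1, KRT8, KRT18 and KRT19 had 2470 to 8623 reads in every library. The intestinal markers were uneven. CDX2 had 548 to 694 reads, GPA33 43 to 54 and LGALS4 10 to 15, whereas CDX1, VIL1, CDH17 and CEACAM5 had 0 to 11. Summed over the tested markers, epithelial genes reached 429 to 444 CPM in DKO and 469 to 501 in WT, fibroblast genes (COL1A1 alone) 2.97 to 3.76 and immune genes 0.405 to 0.587 over both groups. PTPRC had 1 to 4 reads, and COL1A2 and PDGFRA had 0 in every library. Neuronal markers summed to 527 and 600 CPM in DKO and 137 and 142 in WT, nearly all of it SYT1. The part of these differences in read shares and markers in the results below was not tested.

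Reference promoter sequences (RefSeq, GRCh38.p14, from 250 bases before to 50 after each start) were matched for 8 of the 9 genes, all but HMOX1, in 11 windows: NFE2L2, KEAP1 and TXNRD1 have a second start. Some are shown because the members can be compared by whether letters matching the antioxidant response element lie near the start. The core of the antioxidant response element was searched as TGACNNNGC on both strands. It was present in 13.3% of all 35116 promoter windows and in 5 of the 11 windows here, belonging to 4 genes: GCLM, ME1, TXNRD1 (both starts) and KEAP1 (the second start). With an A required after the core, 3.18% of all windows matched and 3 genes remained, GCLM, TXNRD1 and KEAP1. The stretches that hold the matches read as follows, 5′ to 3′ on the gene's strand, with the core in capitals on whichever strand it lies.
GCLM (window chr1:93909381-93909680, minus strand): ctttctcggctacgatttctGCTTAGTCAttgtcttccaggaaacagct
KEAP1, second start (window chr19:10502722-10503021, minus strand): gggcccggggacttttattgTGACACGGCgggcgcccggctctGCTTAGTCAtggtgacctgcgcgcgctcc
TXNRD1, first start (window chr12:104215529-104215828, plus strand): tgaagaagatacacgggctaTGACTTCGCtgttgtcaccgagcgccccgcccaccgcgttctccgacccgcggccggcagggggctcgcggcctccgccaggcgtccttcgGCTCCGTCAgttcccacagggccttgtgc
TXNRD1, second start (window chr12:104286782-104287081, plus strand): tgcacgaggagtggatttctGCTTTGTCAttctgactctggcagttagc
ME1 (window chr6:83431002-83431301, minus strand): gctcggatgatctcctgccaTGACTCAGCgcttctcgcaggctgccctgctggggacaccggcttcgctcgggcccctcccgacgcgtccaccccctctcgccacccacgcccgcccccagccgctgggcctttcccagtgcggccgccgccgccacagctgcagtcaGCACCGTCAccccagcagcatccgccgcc
The cores of GCLM (first base at position -34 from the start) and KEAP1 (-31) share the same letters, TGACTAAGC on the other strand. In ME1 the core at -137 also contains TGANTCA, the core of the AP-1 site, which 7.71% of all windows hold, and no other member window held it.

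The windows of NQO1 and GCLC held no TGACNNNGC in these letters. They are shown whole because these were the members with the largest rises. Capitals here mark GCGTG on either strand, the core of the xenobiotic response element that the aryl hydrocarbon receptor binds. That short core is common: 36.5% of all windows hold it, as did 9 of the 11 windows and all 8 genes here.
NQO1 (chr16:69726511-69726810, minus strand): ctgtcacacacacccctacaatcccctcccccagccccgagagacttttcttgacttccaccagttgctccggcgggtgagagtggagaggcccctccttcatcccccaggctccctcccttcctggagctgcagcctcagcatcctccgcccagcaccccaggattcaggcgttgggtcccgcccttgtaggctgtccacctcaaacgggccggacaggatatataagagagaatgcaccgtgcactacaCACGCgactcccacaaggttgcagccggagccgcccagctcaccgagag
GCLC (chr6:53545052-53545351, minus strand): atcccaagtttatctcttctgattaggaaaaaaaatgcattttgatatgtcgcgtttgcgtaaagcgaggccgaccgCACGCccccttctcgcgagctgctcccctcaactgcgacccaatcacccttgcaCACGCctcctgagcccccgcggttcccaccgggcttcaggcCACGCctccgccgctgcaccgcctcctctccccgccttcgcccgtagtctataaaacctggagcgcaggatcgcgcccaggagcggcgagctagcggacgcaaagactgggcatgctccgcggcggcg
A match is a description of letters, not of binding, and its absence refers to these windows only.

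**Figure D1:**
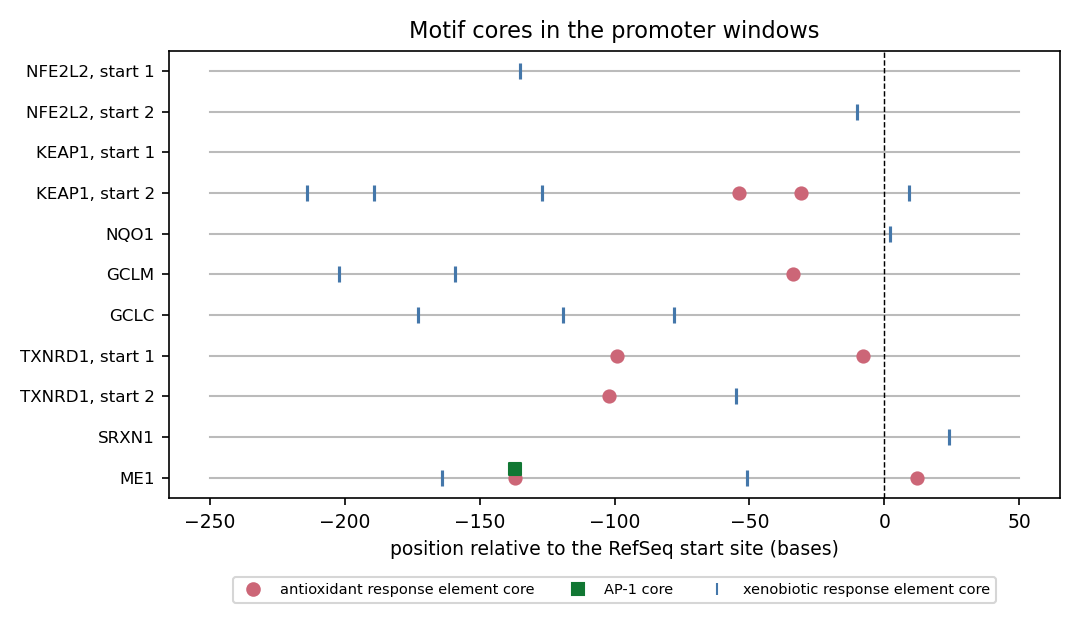
Positions of motif cores in the 11 promoter windows of 8 NRF2 genes, in bases from the RefSeq start site (dashed line). Circles mark the antioxidant response element core, which is present in GCLM, ME1, both TXNRD1 windows and the second KEAP1 window; squares mark the AP-1 core and ticks the xenobiotic response element core.

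Of the 8 tested genes, 6 were higher in DKO than in WT at an adjusted p under 0.05 (quasi-likelihood test of edgeR, Benjamini-Hochberg over 19103 genes), none was lower and 2 were not called. Over all tested genes 40.1% were called, 19% higher and 21.1% lower, and over protein-coding genes 20.3% were higher and 25.2% lower. The median log2 fold change was 0.26 over these 8 genes and -0.01 over all tested genes. Regardless of sign, the median size of the change over all tested genes was 0.19. In size, the change of ME1 exceeded 47.9% of all tested genes, NFE2L2 60% and GCLM 61.1%. TXNRD1 exceeded 80.6%, NQO1 86.8% and GCLC 88.5%, whereas HMOX1 exceeded 19.1% and KEAP1 12.9%. For the 6 called genes both DKO libraries lay above both WT libraries; a separation in either direction was found in 67.9% of all tested genes. The genes that rose serve glutathione synthesis (GCLC, GCLM), thioredoxin reduction (TXNRD1), quinone reduction (NQO1) and NADPH supply (ME1), beside the gene of NRF2 itself. KEAP1 and HMOX1 were not called. CPM values are shares of a library, and in bulk samples a change in the number of cells making a transcript and a change in the amount per cell cannot be told apart.

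**Figure D2:**
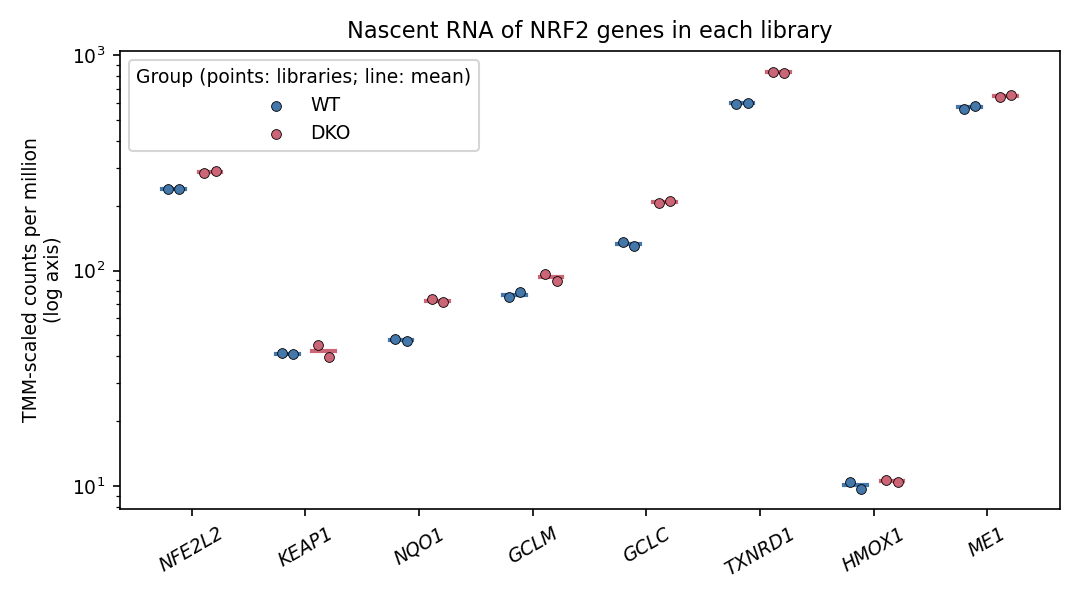
TMM-scaled CPM (log axis) of the 8 tested genes in each of the 2 WT and 2 DKO libraries (points), with group means (lines). Points of the groups separate for NFE2L2, NQO1, GCLM, GCLC, TXNRD1 and ME1 and overlap for KEAP1 and HMOX1.

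Among the regulators, NFE2L2 (ENSG00000116044, chr2:177230303-177264727, hg38) stood at 284 and 289 CPM in DKO and at 240 and 239 in WT. Both DKO libraries were above both WT libraries. The rise was 1.2-fold (log2 fold change 0.26 ± 0.05, SE, adjusted p = 1.68e-06). KEAP1 (ENSG00000079999, chr19:10486125-10503356) stood at 45 and 39.6 CPM in DKO and at 41.2 and 40.8 in WT. The WT libraries lay between those of DKO, whose own gap (0.18 on the log2 scale) was larger than the difference between the groups. Its log2 fold change was 0.04 ± 0.06 (adjusted p = 0.576), with a 95% interval from -4.59% to 11.3%, which holds changes of either sign. It was -0.05 without DKO replicate 1 and 0.13 without DKO replicate 2, not called in either. KEAP1 lies on chromosome 19, where the median log2 fold change was -0.13. With libraries scaled on the genes of that chromosome it was called higher (log2 0.17 ± 0.06, adjusted p = 0.0128). This value is below the gap of 0.18 between its DKO replicates. The scaling shifts all tested genes together, and the SE takes it as free of error, so the spread of the chromosome's genes is not included.

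GCLC and GCLM encode the catalytic and the modifier subunit of glutamate-cysteine ligase, the rate-limiting enzyme of glutathione synthesis. GCLC (ENSG00000001084, chr6:53497341-53545101) stood at 207 and 211 CPM in DKO and at 136 and 130 in WT, with a wide gap between the groups. Its rise of 1.57-fold was the largest of the 8 tested genes (log2 0.65 ± 0.05, adjusted p = 4.08e-29). GCLM (ENSG00000023909, chr1:93885199-93909430) stood at 96.4 and 89.5 CPM in DKO and at 75.1 and 79.6 in WT. Its groups did not overlap, but its replicates differed more than those of GCLC. The rise was 1.2-fold (log2 0.26 ± 0.05, adjusted p = 1.47e-06). The call was lost without WT replicate 1 (log2 0.22, adjusted p = 0.0744) and with no filter on low counts (0.26, adjusted p = 0.0624). The 2 subunits thus rose by 57.3% and 20.2%, with 95% intervals of 47.5% to 67.8% and 12.4% to 28.4%; the difference between them was not tested.

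TXNRD1 (ENSG00000198431, chr12:104215779-104350307), the cytosolic selenoenzyme that passes electrons from NADPH to thioredoxin, stood at 841 and 832 CPM in DKO and at 597 and 602 in WT. Replicates were 0.02 apart on the log2 scale in DKO and 0.01 in WT, and the rise was 1.4-fold (log2 0.48 ± 0.05, adjusted p = 7.41e-16). It had the most reads of the 9 genes, 30741 to 44776 per library. SRXN1 (ENSG00000271303, chr20:646615-653200) encodes sulfiredoxin, which repairs overoxidised peroxiredoxins. It had 2 reads and 1 read in DKO and 1 and 1 in WT. These counts did not pass the filter on low counts (minimum count 10, minimum total 15), so no fold is given. Nothing can be said about the transcription of SRXN1 at this count.

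NQO1 (ENSG00000181019, chr16:69709401-69726560) encodes a quinone reductase that spends NADPH or NADH to convert quinones directly to hydroquinones. It stood at 73.4 and 71.4 CPM in DKO and at 48.1 and 47 in WT. The groups were well apart, with a 1.52-fold rise (log2 0.61 ± 0.05, adjusted p = 7.31e-23). NQO1 is also known as a target of AHR, the aryl hydrocarbon receptor of xenobiotic metabolism. Of 6 tested genes of that pathway, NQO1 included, 4 were higher in the same libraries (CYP1A1, CYP1B1 and TIPARP beside it) and none lower. Over all tested genes 19% were higher. AHR itself (log2 0.2 ± 0.12, adjusted p = 0.189) and ARNT (-0.004 ± 0.05, adjusted p = 0.966) were not called. CYP1A1 and CYP1B1 were low, at 1.06 to 8.21 CPM. CYP1A1 stood at 8.02 and 8.21 CPM in DKO and 2.33 and 2 in WT (log2 1.9 ± 0.12, adjusted p = 1.32e-34). CYP1B1 stood at 5.78 and 5.36 CPM in DKO and 1.06 and 1.57 in WT (log2 2.09 ± 0.14, adjusted p = 8.5e-31). The repressor gene TIPARP stood at 545 and 530 CPM in DKO and 205 and 196 in WT (log2 1.42 ± 0.05, adjusted p = 5.43e-69). The part of that pathway in the NQO1 value was not tested.

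ME1 (ENSG00000065833, chr6:83210402-83431051), the cytosolic malic enzyme that makes NADPH from malate, stood at 643 and 657 CPM in DKO and at 565 and 580 in WT. The groups did not overlap, but the rise of 13.5% was the smallest of those called (log2 0.18 ± 0.05, adjusted p = 0.00183). It was not called without WT replicate 1 (0.16, adjusted p = 0.142) or without WT replicate 2 (0.2, adjusted p = 0.0804). HMOX1 (ENSG00000100292, chr22:35381096-35394207), the inducible haem oxygenase, stood at 10.6 and 10.4 CPM in DKO and at 10.4 and 9.71 in WT. It was the lowest of the tested members, with 496 to 566 reads per library, and its groups overlapped. The log2 fold change was 0.06 ± 0.09 (adjusted p = 0.601), with a 95% interval from -7.28% to 17.8%.

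Levels per kb of genomic span were compared between genes although the counted feature, exon or gene body, is not stated in the labels used. In WT the order was NFE2L2 (6.97 CPM per kb), TXNRD1 (4.46), GCLM (3.19), GCLC (2.78), NQO1 (2.77), ME1 (2.6), KEAP1 (2.38) and HMOX1 (0.768). GCLC and NQO1 overlapped in WT, and every other neighbouring pair was separated in all libraries. In DKO the levels were 8.33, 6.22, 3.84, 4.37, 4.22, 2.95, 2.45 and 0.803 CPM per kb in the same gene order, so GCLC and NQO1 stood above GCLM.

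Position was examined because genes of chromosome 20 were lower as a whole in DKO, with a median log2 fold change of -0.59. Of its 430 tested genes 79.5% were called lower and 3.02% higher. SRXN1 is the only member there. Of the 10 tested protein-coding genes nearest to it, 9 were lower and none higher (median -0.57, range -0.92 to -0.17), including CSNK2A1 before it (-0.52 ± 0.05, adjusted p = 2.93e-19). The other members lie on chromosomes with medians from -0.13 to 0.04. Around NQO1 the 10 nearest genes ranged from -0.25 to 0.19 (median -0.09) and around TXNRD1 from -0.33 to 0.11 (median -0.06), so both members lay above all of these neighbours. With 10 genes taken on each side the highest neighbours reached 0.65 and 0.66, above both. The neighbours of GCLC ranged more widely, from -1.13 to 1.23 with 5 higher and 3 lower, and their median was 0.39, or 0.08 with 10 genes on each side (7 higher, 6 lower). For NFE2L2 (median of neighbours 0.09), GCLM (0.13) and ME1 (-0.12) some neighbours exceeded the member, with the highest at 0.89, 0.69 and 0.82. When libraries were scaled on the genes of the member's own chromosome, NFE2L2 (0.23), NQO1 (0.68), GCLM (0.27), GCLC (0.61), TXNRD1 (0.47) and ME1 (0.14, adjusted p = 0.0206) were all still called higher.

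**Figure D3:**
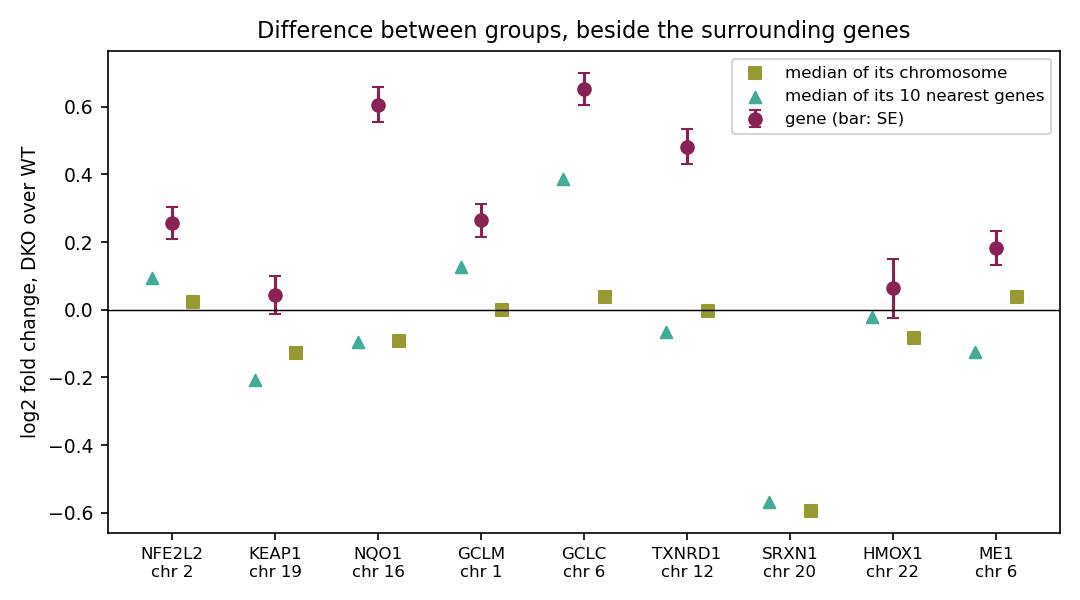
Log2 fold change, DKO over WT, of each tested NRF2 gene (circles, bars are SE), beside the median of the tested genes of its chromosome (squares) and of the 10 nearest tested protein-coding genes (triangles). SRXN1 was not tested, and the medians around it are at -0.59 and -0.57; NQO1, GCLC and TXNRD1 stand furthest above their chromosomes.

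The machinery that controls NRF2 was read from a list of 18 genes for its turnover, partners and competitors, all tested. Of these, 6 rose and none fell (33.3% higher, median log2 fold change 0.08). BACH1, the repressor that competes at the same elements, was at 241 and 234 CPM in DKO and at 174 and 181 in WT, and rose most (0.42 ± 0.05, adjusted p = 8.86e-15). SQSTM1, the autophagy receptor p62 that draws KEAP1 away from NRF2, rose by a log2 of 0.23 ± 0.05 (adjusted p = 1.3e-05), but was no longer called without WT replicate 2 (0.15, adjusted p = 0.109). CUL3, the ligase scaffold, rose by 0.23 ± 0.05 (adjusted p = 2.84e-05) and was not called without WT replicate 1 (0.22, adjusted p = 0.0716). With WT replicate 1 or WT replicate 2 left out, 2 genes of the list were called.

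Among 34 other NRF2 targets 29 were tested, of which 14 rose and 5 fell (48.3% and 17.2%, median 0.2). SLC7A11, which imports the cystine for glutathione, went from 104 and 106 CPM in WT to 180 and 188 in DKO (1.75-fold, log2 0.81 ± 0.05, adjusted p = 1.16e-38). OSGIN1, an oxidative stress response gene (0.43 ± 0.06, adjusted p = 3.94e-09), and PIR, which encodes pirin (0.37 ± 0.05, adjusted p = 1.18e-11), rose 1.34-fold and 1.29-fold. Of the falls, those named by size were the genes of 2 pentose phosphate enzymes, transaldolase (TALDO1) at -0.33 ± 0.07 (adjusted p = 8.55e-06) and transketolase (TKT) at -0.16 ± 0.05 (adjusted p = 0.0029). The other was the efflux pump gene ABCC1 (-0.15 ± 0.05, adjusted p = 0.00739). Without WT replicate 1, 9 genes of the list were called higher and none lower, with TALDO1 at -0.29 (adjusted p = 0.0525), TKT at -0.15 (0.136) and ABCC1 at -0.18 (0.106). Without WT replicate 2 there were 8 and 1, with TKT at -0.17 (0.0913) and ABCC1 at -0.13 (0.178). With upper quartile factors 2 of the falls were left, ABCC1 not among them (-0.12, adjusted p = 0.0775).

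Glutathione genes beyond the ligase went both ways, 7 higher and 5 lower of 21 tested (33.3% and 23.8%, median 0.07), SLC7A11 among the former again. GLRX2, a mitochondrial glutaredoxin gene, rose from 21.7 and 21.8 to 34.2 and 33.1 CPM (0.63 ± 0.06, adjusted p = 1.7e-17). GSS, the glutathione synthetase gene that acts right after the ligase, lies on chromosome 20 and fell from 58 and 54.4 to 35.5 and 34.4 CPM (-0.69 ± 0.06, adjusted p = 5.73e-25), near the median of that chromosome. GSTK1, a glutathione transferase gene, fell as well (-0.41 ± 0.09, adjusted p = 3.32e-05). Without WT replicate 1 the list had 3 higher and 2 lower, and without WT replicate 2 it had 4 and 3.

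Of 16 tested thioredoxin and peroxiredoxin genes 7 rose and 3 fell (43.8% and 18.8%, median 0.13). The methionine sulfoxide reductase genes MSRB3 (0.74 ± 0.05, adjusted p = 2.73e-34) and MSRA (0.42 ± 0.05, adjusted p = 4.08e-15) and the peroxiredoxin gene PRDX1 (0.33 ± 0.05, adjusted p = 4.83e-10) rose. The largest rise and fall of the list were in genes under the level set for naming, a mean log2 CPM of 3. These were SESN3 (1.72 ± 0.1, adjusted p = 1.63e-38) and PRDX5 (-0.39 ± 0.11, adjusted p = 0.00165). TXNRD2, the mitochondrial counterpart of TXNRD1, fell from 27.7 and 26.5 CPM in WT to 22 and 19.7 in DKO (-0.38 ± 0.07, adjusted p = 4.27e-07). With WT replicate 1 or WT replicate 2 left out, 4 were called higher and 1 lower.

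The shares of NADPH supply and haem genes that rose, 23.5% and 21.1%, lay near the 19% of all genes. Of 17 tested NADPH genes other than ME1, 4 rose and 4 fell (median -0.05). The falls of TALDO1, TKT and PGD are also counted among the other NRF2 targets above. The mitochondrial NAD kinase gene NADK2 rose (0.4 ± 0.06, adjusted p = 5.17e-10), while the isocitrate dehydrogenase gene IDH1 fell (-0.27 ± 0.06, adjusted p = 7.11e-05). IDH1 was at -0.22 (adjusted p = 0.0721) without WT replicate 2. The list had 1 higher and 1 lower without WT replicate 1, and 2 and 1 without WT replicate 2. Of 19 tested haem and iron genes, 4 rose and 6 fell (median -0.11). The haem synthesis gene CPOX (0.41 ± 0.05, adjusted p = 1.16e-11) and the biliverdin reductase gene BLVRA (0.34 ± 0.07, adjusted p = 1.33e-05) rose. HMOX2, the constitutive haem oxygenase gene, fell from 75.7 and 76.2 CPM to 60.6 and 56.9 (-0.37 ± 0.05, adjusted p = 7.79e-11), beside an HMOX1 that was not called. FTH1, the ferritin heavy chain gene, rose (0.26 ± 0.05, adjusted p = 7.76e-07) but was no longer called without WT replicate 2 (0.21, adjusted p = 0.0753). With upper quartile factors 3 haem and iron genes were called lower, and without WT replicates 1 and 2 in turn 2 and 3.

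**Figure D4:**
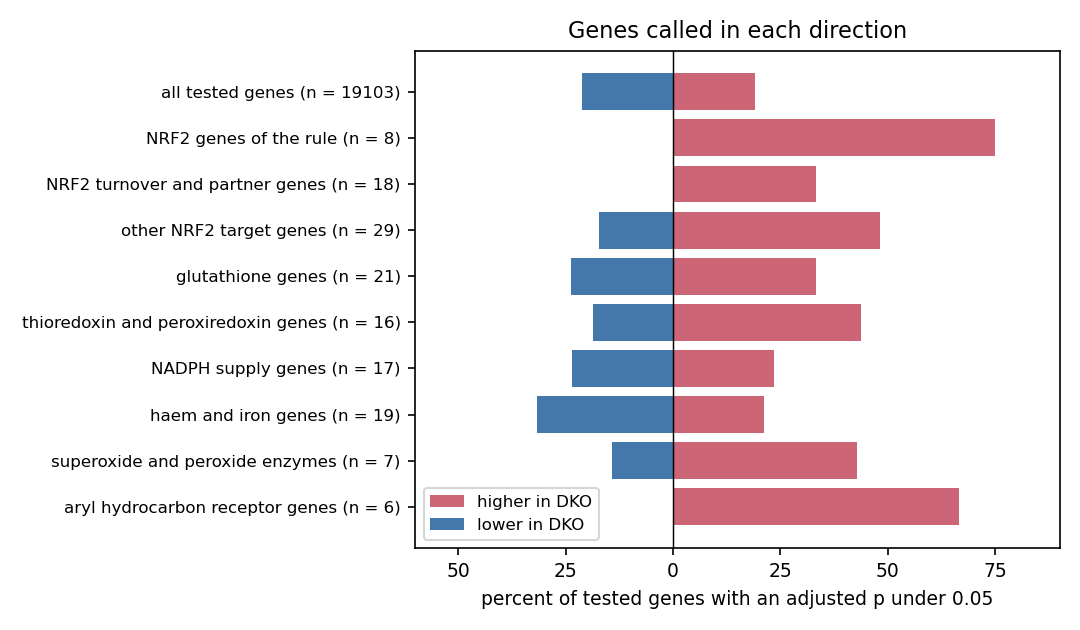
Percent of tested genes with an adjusted p under 0.05, higher (right) or lower (left) in DKO, for all tested genes, the NRF2 genes of the rule and 8 lists of related genes, with the number tested. Rises were 19% of all genes, 48.3% of the other NRF2 targets and 21.1% of haem and iron genes.

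Under the alternatives run for each of the 8 tested genes, the values of NQO1 stayed between 0.59 and 0.68, of GCLC between 0.61 and 0.69, of TXNRD1 between 0.47 and 0.52 and of NFE2L2 between 0.23 and 0.29, and these 4 genes were called higher in every one. The 3 protein-coding genes whose log2 CPM over the 4 libraries lay closest to that of GCLC, each centred on its own mean, were FGF2, KIAA1217 and WNT16, at root mean square distances of 0.0116, 0.0137 and 0.0168 among 9144 candidates and with log2 fold changes of 0.67, 0.64 and 0.67. Over 4 libraries in 2 groups such a distance depends mainly on the size of the difference between the groups.

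**Figure D5:**
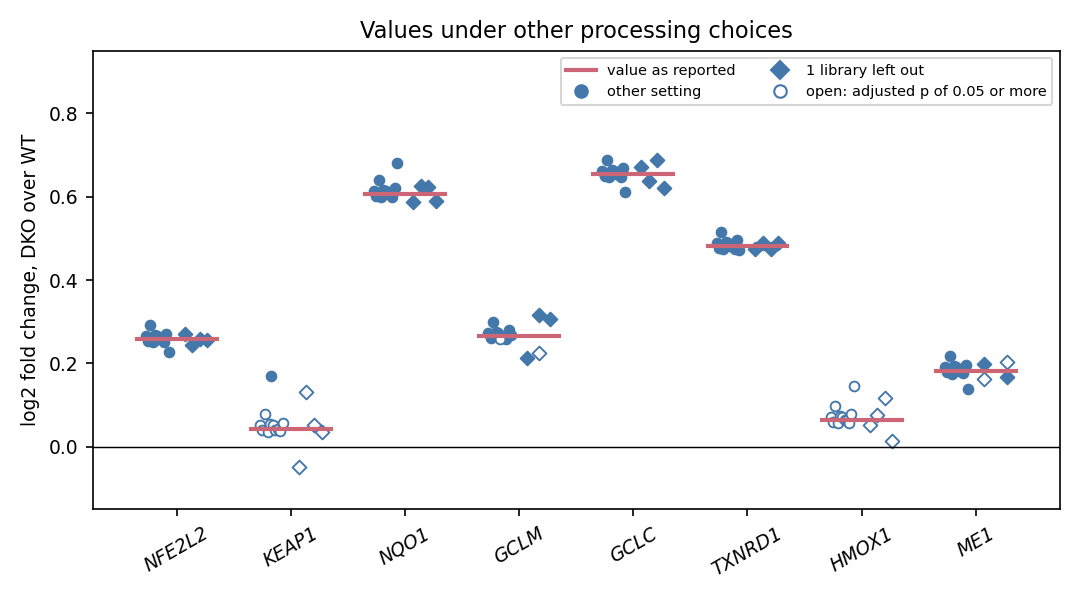
Log2 fold change, DKO over WT, of each tested NRF2 gene as reported (line), under other processing choices (circles) and with 1 library left out (diamonds); open symbols have an adjusted p of 0.05 or more. GCLM has 2 open symbols and ME1 has 2, and KEAP1 is filled only where it is scaled on its own chromosome.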

How the data were processed

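The authors deposited raw read counts per Ensembl gene, 1 file per library with no header, for 2 DKO and 2 WT libraries. The tools named by the submitters' processing notes are featureCounts 1.6 and STAR 2.7.3a, with build hg38; per the labels' protocols, 66 ng of labelled RNA entered a stranded kit and was read as single reads of 75 bp. The labels and notes used do not give the gene set, the strand setting or the feature counted, so reads of overlapping and antisense genes, such as NQO1-AS1, GCLC-AS1 and TXNRD1-AS1, may not be separable. Versions of IDs were stripped; 42020 of 60656 matched a symbol and 40513 a RefSeq span (GRCh38.p14).

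Groups were compared with edgeR 4.0.16 (R 4.3.3), by its quasi-likelihood F-test, on all 19103 genes that passed filterByExpr (minimum count 10, minimum total 15), with TMM factors, group as the only term and Benjamini-Hochberg adjustment, called under 0.05. SE is the absolute log2 fold change over the root of F. Log2 CPM used a prior count of 2. The script was tested on simulated data first. Replicates differed by more than sampling noise (chi-square per degree of freedom 4.98 in DKO and 4.33 in WT).

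Members and lists were chosen with earlier results of these data known. The rule for named genes takes all members, up to 3 called genes with the largest rise and 3 with the largest fall in each list at a mean log2 CPM of at least 3, the 3 genes most like the member with the largest change, and the nearest neighbours of SRXN1. Of 39 such genes that are no member, 15 lost their call in a run without a library, and most of those are counted but not described. Alternatives were other scalings (DESeq2 size factors, total counts, upper quartile), other filters, DESeq2 1.42.0, limma 3.58.1 voom, a replicate block, subsets of genes, own-chromosome scaling and leaving out each library. Lists are described by counts, without a set test. They overlap, so some genes, such as SLC7A11, PRDX1, TXN, FTH1, FECH, TALDO1, TKT and PGD, are counted in several lists. Figures used matplotlib 3.10.9.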

Additional observations from a re-analysis of the deposited data

How the results depend on the processing

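The count of NRF2 genes called higher was 6 under every other scaling, test and subset of genes run, 5 with no filter on low counts and 7 when each was scaled on its own chromosome, where KEAP1 was added; with a library left out it ranged from 4 to 6, and none was called lower in any of these. Over all genes, 3632 were higher and 4025 lower. With no filter beyond 1 read, which tests many more genes, these counts were 1640 and 1655, the DESeq2 Wald test called 2524 lower, and with each library left out in turn they ranged from 1544 to 3162 and from 1452 to 3454, lowest without WT replicate 1; the cause was not tested. The replicate block left 6 members higher and none lower. Same numbers do not pair the libraries by the labels, and the deviations of DKO and WT replicate 1 from their group means had a correlation of -0.01 over 10036 genes. Of 120 member values under alternatives, 115 kept their direction if called and their side of the threshold, 4 lost it (GCLM 2 and ME1 2) and 1 gained it (KEAP1). Of 224 counts of called genes in the related lists, 181 were within 1.5 times the reported count; the rest, beside those printed with the lists, were these. With no filter 3 turnover genes were higher, 1 other target lower, and higher and lower counts were 4 and 2 for glutathione, 4 and 1 for thioredoxin, 2 and 1 for NADPH and 2 and 2 for haem genes, with no superoxide gene higher. The Wald test gave 3 other targets lower, 4 glutathione genes higher and 2 lower, and 2 NADPH genes and 1 superoxide gene higher; a minimum of 50 reads gave 3 glutathione genes lower, as did leaving out either DKO library, and without WT replicate 2 there was 1 superoxide gene higher. With 10 in place of 5 neighbours on each side, 5 of 9 neighbour medians moved by more than the replicate spread, GCLC from 0.39 to 0.08. A group reduced to 1 library borrows its spread from the other group. SRXN1 had too few reads for any comparison.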

Other observations

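Enzymes that make or remove superoxide and peroxide were mixed: of 7 tested genes 3 rose and 1 fell. DUOX1, a peroxide-producing oxidase gene, stood at 12.1 and 12.6 CPM in DKO and at 9.72 and 8.26 in WT (log2 fold change 0.46 ± 0.09, edgeR adjusted p = 4.2e-06). CYBA, which encodes a subunit shared by NADPH oxidases, fell from 28.3 and 26.7 to 19.9 and 21.6 CPM (-0.4 ± 0.07, adjusted p = 6.91e-08). DUOX1 was not called with no filter on low counts (0.45, adjusted p = 0.0612). Over all related lists together, with each gene taken once and the members left out, 43 of 119 tested genes were higher and 21 lower. These are 36.1% and 17.6%, beside 19% and 21.1% of all tested genes, and the median log2 fold change was 0.08.

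Several redox genes were at or near 0 reads in every library. PRDX2, CBR1, GGT1 and GSTM3 had 0 in all 4, TXNIP had 1 read in WT replicate 1 and 0 elsewhere, and NNT had 2 to 5. EID3, which lies inside the span of TXNRD1, also had 0 reads beside at least 30741 for TXNRD1. How the authors assigned reads that overlap several genes was not stated in the labels used.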
